A study of Mus musculus with 6 samples.

Results

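CpG-island-like promoters occupied by CTCF in mouse embryonic stem cells (mESCs) are described here, with wild-type CTCF and with CTCF that cannot carry O-GlcNAc at a single threonine. The members were the joined CTCF regions on chromosomes 1 to 19 and X that overlapped 1000 bp either side of a protein-coding transcript start, with a G+C content of at least 55% and an observed over expected CpG ratio of at least 0.6. These limits were met by 930 of the 57662 regions, or 1.61%, and by 930 of the 5576 regions at protein-coding promoters. The rule used position and sequence only. The regions themselves were joined from the peaks, however, and each of the 57662 had a peak in at least 1 library. The WT_CTCF lists were the longer ones, so a high share called with WT_CTCF is partly built in, at members and other regions alike.

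Binding of CTCF was mapped by ChIP-seq, the sequencing of DNA that is pulled down with an antibody, in 2 WT_CTCF and 2 MUT_CTCF libraries. WT_CTCF mESCs expressed an introduced wild-type CTCF, and MUT_CTCF mESCs an introduced CTCF with alanine in place of that threonine. In both, the endogenous CTCF carried a degron and was removed with auxin, cells were grown in serum with LIF, and Drosophila chromatin was added as a spike-in. Picked clones were used, so genotype and clone cannot be told apart, and the replicates, which the methods call biological, are replicates within a cell line, so p-values measure only the spread between these samples. Expression of stem cell markers was not measured in these libraries.

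CTCF is a zinc finger protein that stops cohesin as it extrudes chromatin, and thereby sets the ends of loops and domains. CpG islands are stretches rich in C, G and CpG dinucleotides at the promoters of most housekeeping and many developmental genes, and they usually lack DNA methylation. CTCF binds a long motif through its fingers, methylation of a CpG in that motif can weaken the binding, and sites at promoters lie close to transcription start sites.

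Peaks numbered 49987 and 54001 with WT_CTCF and 33939 and 32712 with MUT_CTCF. A region is called in a library when a peak of that library overlaps it, and its score is that of the highest such peak, as the peak caller set it. The score is not a read count or a binding level, its definition was not stated in the sources used here, and no read depth is known. From spike-in normalized ChIP-seq, the authors report more binding of MUT_CTCF to chromatin genome-wide. A lower score or fewer calls with MUT_CTCF below can therefore not be read as weaker binding. The mean signal is the authors' average of the scaled read counts of a region over the 4 libraries, so it does not separate the genotypes.

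The members had a median G+C content of 62.6% (25th to 75th percentile, 58.4% to 67.7%) and held a median of 34 CpG dinucleotides in a median width of 457.5 bp. By contrast, the 4646 other regions at protein-coding promoters, called CpG-poor promoter regions below, had a median G+C content of 48.9% and a median of 9 CpG dinucleotides. The authors' mean signal was 238 at the median member, 118.5 at the median CpG-poor promoter region and 94.0 at the median of all other regions. Members were nearest to the starts of 919 genes, or 4.14% of the 22208 protein-coding symbols of the annotation, and 11 genes had more than 1 member. They lay on all 20 chromosomes used.

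To show what these sites look like, sequence is given for members with the highest mean signal per kb, for those with the largest score differences, and for the highest-scoring ones called with WT_CTCF alone. Bases are from mm9. Capitals mark the best match to the 13-base CTCF core consensus, read 5′ to 3′ on the strand of the match. Windows that touched an annotated UTR were kept to 29 bases. First come the 4 members with the highest mean signal per kb, which were called in all 4 libraries.
Rapgef1 (chr2:29475198-29475226, plus strand): gctccgggCCATCAGGGGGCGctgtggcg
Plekhg4 (chr8:107898697-107898797, plus strand): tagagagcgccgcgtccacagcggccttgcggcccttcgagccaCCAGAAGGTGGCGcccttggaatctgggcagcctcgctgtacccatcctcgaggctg
Vps36 (chr8:23303219-23303247, plus strand): agtggcagCCGCCAGGGGGCGccgcctgt
Gbas (chr5:130230793-130230893, minus strand): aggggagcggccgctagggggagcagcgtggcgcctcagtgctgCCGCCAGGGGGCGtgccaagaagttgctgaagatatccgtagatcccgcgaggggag

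The next members were among the 4 with the largest score difference of those called in all 4 libraries, and both hold a match to the core.
Cacna1a (chr8:87163259-87163359, minus strand): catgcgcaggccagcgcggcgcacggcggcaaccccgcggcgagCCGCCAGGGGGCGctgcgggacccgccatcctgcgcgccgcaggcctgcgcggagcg
Gclm (chr3:121948351-121948451, plus strand): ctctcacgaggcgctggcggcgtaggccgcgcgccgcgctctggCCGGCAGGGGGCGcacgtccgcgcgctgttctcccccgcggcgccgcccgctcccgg

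The following members had a peak in each WT_CTCF library and none with MUT_CTCF.
Carm1 (chr9:21351195-21351295, plus strand): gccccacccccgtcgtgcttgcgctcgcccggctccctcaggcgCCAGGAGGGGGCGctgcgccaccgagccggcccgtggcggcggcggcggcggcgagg
Usp42 (chr5:144493182-144493210, plus strand): cggccgggCCGCCAGGGGGCGcaccaggg
1700081L11Rik (chr11:104303691-104303791, plus strand): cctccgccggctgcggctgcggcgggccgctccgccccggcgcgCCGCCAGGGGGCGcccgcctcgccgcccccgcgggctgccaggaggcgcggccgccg
Cdc73 (chr1:145550038-145550066, plus strand): gcgggccgCCGCCAGGGGGCGccgtggcc

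The same 13 bases, CCGCCAGGGGGCG, were the match in Vps36 and Gbas, in Cacna1a, and in Usp42, 1700081L11Rik and Cdc73. The flanks differed in composition. The window of Gbas held 9 CpG dinucleotides and had a G+C content of 68.3%, against 19 and 83.2% in Cacna1a and 21 and 91.1% in 1700081L11Rik. Over all members, CCGCCAGGGGGCG was the most frequent match, in 40 members and 55 other regions. The next, CCGGCAGGGGGCG, occurred in 19 members and 38 other regions, whereas CCAGCAGAGGGCG, with a single CpG, occurred in 12 members and 398 other regions.

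A match to the core with at most 1 mismatch, on either strand, was found in 344 of 930 members, or 37.0% (95% Wilson interval 33.9% to 40.1%, which covers counting error only). The share was 50.1% of CpG-poor promoter regions, 39.6% of the 333 CpG-rich regions away from protein-coding promoters and 61.0% of all other regions. The last group is every region that is not a member, the former groups included. Members with an exact match numbered 65, or 6.99%. Of the matches in members, 89.2% contained a CpG, against 35.0% in all other regions. The share was 81.1% in CpG-rich regions away from promoters and 43.2% in CpG-poor promoter regions. Members were selected by CpG ratio and G+C content, so these shares describe the rule as well as the sites. The best match lay a median of 12 bp from the mean summit of the calling libraries, and 308 of the 344 lay within 50 bp of it. The match pointed the same way as transcription of the nearest gene in 222 of 344 members (64.5%) and in 1244 of 2328 CpG-poor promoter regions with a match (53.4%).

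Members sat close to transcript starts. The median summit lay at -66 bp from the nearest protein-coding start (25th to 75th percentile, -139 to 24.2 bp), where negative values are upstream, and 435 of 930 (46.8%) lay within 100 bp of it. Among CpG-poor promoter regions the median was -132 bp and 14.4% lay within 100 bp. Members touched an exon in 741 cases (79.7%), a UTR in 673 (72.4%) and coding sequence in 327 (35.2%). At 62 members (6.67%) a start on the other strand lay within 1000 bp upstream of the nearest start, the head-to-head layout, against 3.70% of CpG-poor promoter regions.

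**Figure D1:**
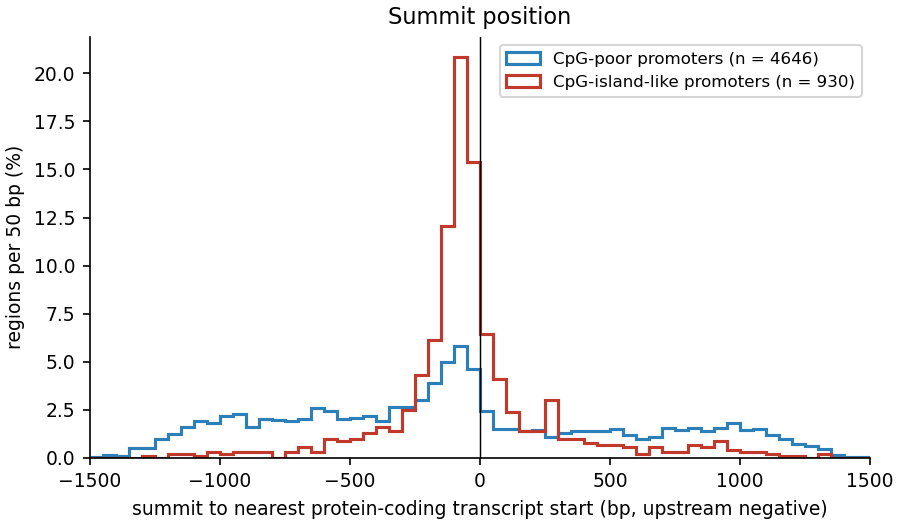
Distance in bp from the mean summit to the nearest protein-coding transcript start (x axis, upstream negative) against the share of regions per 50 bp (y axis, %), for the 930 CpG-island-like promoter regions (red) and the 4646 CpG-poor promoter regions (blue). The red outline peaks just upstream of the start, with a median of -66 bp, while the blue one extends across the whole window.

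Short words of promoter factors were searched on both strands of the 201 bp around the mean summit, with no mismatch. GGGCGG, the core of Sp and Klf sites, was found in 57.7% of members, against 12.1% of CpG-poor promoter regions, 39.9% of CpG-rich regions away from promoters and 5.85% of all 57662 regions. This word can overlap the last bases of a CTCF match. CCGGAAG, bound by ETS factors, was found in 10.2% of members, 3.12% of CpG-poor promoter regions, 2.40% of CpG-rich regions away from promoters and 1.60% of all regions. The word of NRF1 was GCGC on either side of a 2-base gap. This word was found in 12.2% of members, 7.21% of CpG-rich regions away from promoters and 0.555% of all regions. CCAAT, bound by NF-Y, was found in 17.4% of members and 20.6% of all regions, and TATAAA, bound by TBP, in 1.94% and 10.9%. The remaining words searched were TGACGTCA of CREB and ATF (1.72% of members, 0.154% of all regions), CACGTG of Myc and USF (4.84% of members, 3.60% of all regions) and AAGATGGC of YY1 (1.72% and 2.48%). In CpG-rich regions away from promoters, CCAAT was found in 9.31%, TATAAA in 0%, TGACGTCA in 0.901%, CACGTG in 4.80% and AAGATGGC in 1.20%. A word rich in CpG is more frequent in CpG-rich sequence, so these shares describe the rule as well as the sites, and a match is not a bound site.

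Members were called in most cases with WT_CTCF and in a minority of cases with MUT_CTCF. In WT_CTCF, 842 members (90.5%) were called in replicate 1 and 896 (96.3%) in replicate 2. In MUT_CTCF, 413 members (44.4%) were called in replicate 1 and 390 (41.9%) in replicate 2. The means were 93.4% ± 4.11 (SD, n = 2) and 43.2% ± 1.75 (SD, n = 2), a difference of -50.3 percentage points. The genotypes did not overlap, and their difference exceeded the spread of either one. An exact two-sided permutation test gave p = 0.333, which is the lowest value that 4 libraries in 2 groups permit, so no comparison of this kind can pass a threshold of 0.05. The same test and the same limit hold for every comparison of library values below.

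The difference was larger at members than over all other regions together. These other regions were called in 86.3% and 93.4% of cases with WT_CTCF, and in 58.5% and 56.4% with MUT_CTCF. Members were thus called more often than other regions with WT_CTCF, by 4.28 and 2.96 percentage points, and less often with MUT_CTCF, where the gaps were -14.1 and -14.5 points. The difference between the genotypes in this gap was -17.9 points (exact two-sided permutation test, p = 0.333). Against CpG-poor promoter regions alone, which were called in 57.1% and 55.2% of cases with MUT_CTCF, it was -16.4 points (exact permutation p = 0.333). Against CpG-rich regions away from promoters, called in 43.2% and 43.5% of cases with MUT_CTCF, it was -1.62 points (exact permutation p = 0.333), and the gaps of the MUT_CTCF libraries, 1.17 and -1.61 points, lay on either side of 0.

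**Figure D2:**
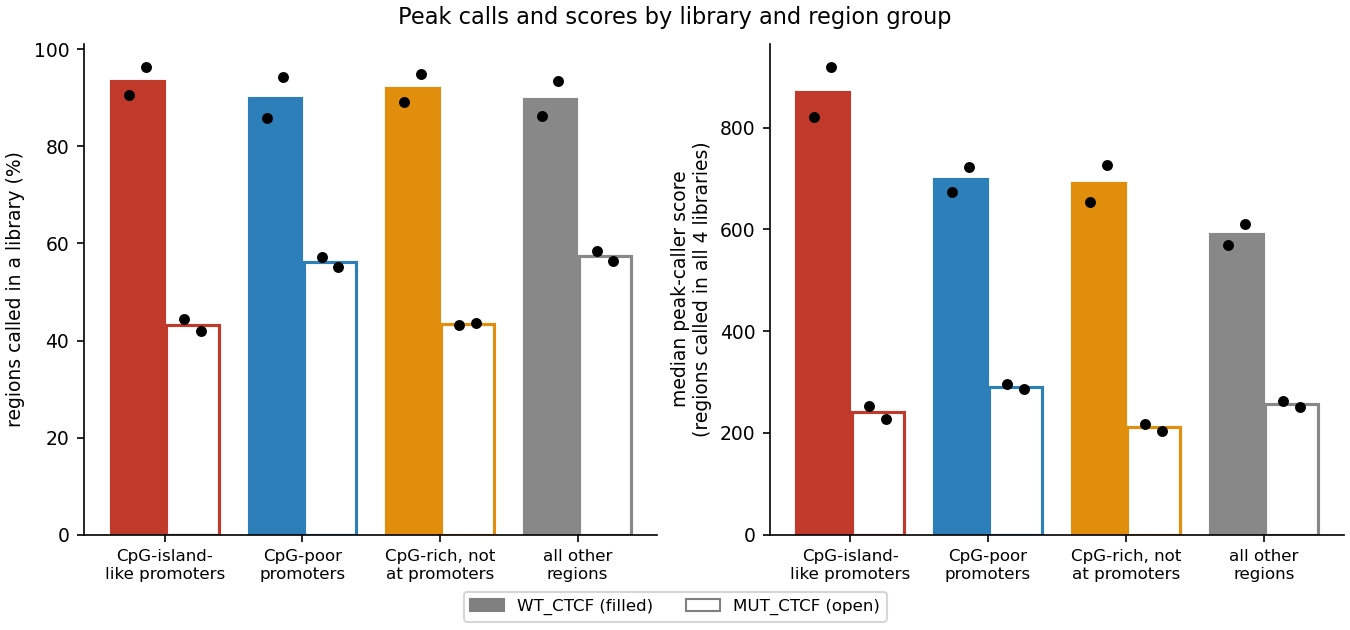
Share of regions called per library (left, y axis in %) and median peak-caller score of regions called in all 4 libraries (right, y axis), for the 4 region groups (x axis). Bars are means of 2 libraries, filled for WT_CTCF and open for MUT_CTCF, and points are the libraries. With MUT_CTCF, calls at CpG-island-like promoters and at CpG-rich regions away from promoters lie between 41.9% and 44.4%, below both other groups.

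By library pattern, 374 members (40.2%) were called in all 4 libraries and 53 in both WT_CTCF libraries and 1 MUT_CTCF library. A further 382 members (41.1%) had a peak in each WT_CTCF library and none with MUT_CTCF, against a background of 19.5% of all 57662 regions and 36.6% of CpG-rich regions away from promoters. Members called in both MUT_CTCF libraries and in no WT_CTCF library numbered 0, where the background was 0.033%, or 19 regions. Of the remaining members, 87 were called in WT_CTCF replicate 2 alone, 32 in WT_CTCF replicate 1 alone, 1 in both replicate 1 libraries and 1 in MUT_CTCF replicate 1 alone.

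Members called with WT_CTCF alone were richer in G+C and had lower WT_CTCF scores than those called in all 4 libraries. Their median G+C content was 66.3%, against 59.7%, and 29.8% of them held a core match, against 51.1%. Their median scores were 170 and 199 in the WT_CTCF libraries, against 821 and 919 for members called in all 4. These scores were still above those of the other regions called with WT_CTCF alone, which had a median of 90 in each WT_CTCF library. CpG-rich regions away from promoters called with WT_CTCF alone were nearer to the members, with medians of 142.5 and 156.5.

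At equal WT_CTCF score, members were called less often with MUT_CTCF than other regions. Regions called in both WT_CTCF libraries were split into 10 classes of equal size by their mean log2 WT_CTCF score, numbered from the lowest to the highest. In class 6, 26.4% of 91 members and 94.8% of 4539 other regions were called in both MUT_CTCF libraries. In class 9 the shares were 90.0% of 90 members and 99.9% of 4527 other regions. CpG-rich regions away from promoters, which are among the latter, had 46.2% of 26 in class 6 and 84.0% of 25 in class 9. The members' share was the lower one in every class, with differences of -2.14 to -68.4 percentage points. These classes were chosen after the data were seen.

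**Figure D3:**
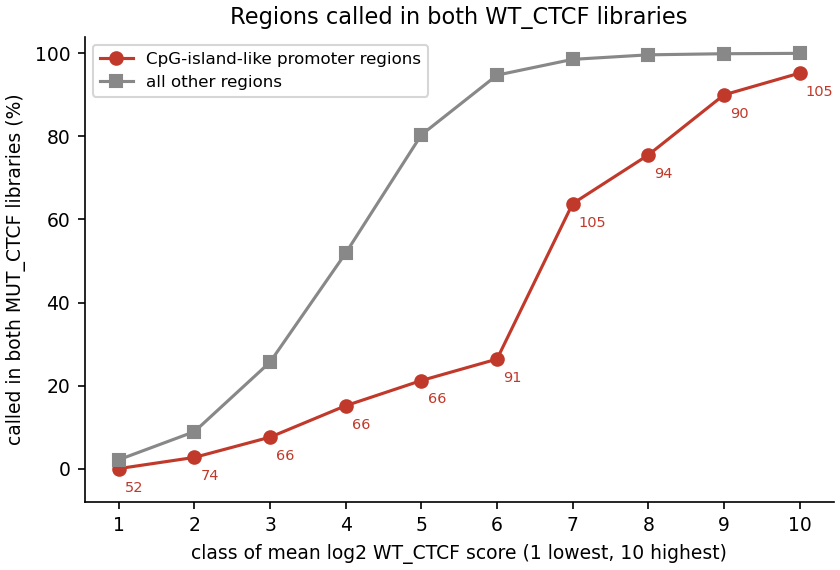
Regions called in both WT_CTCF libraries, by class of equal size of mean log2 WT_CTCF score (x axis), against the share also called in both MUT_CTCF libraries (y axis, %). Red circles are CpG-island-like promoter regions with their number beside each point, and grey squares are all other regions. The red line lies below the grey one in all 10 classes, with the widest distance in class 6.

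The next comparison used the 374 members called in all 4 libraries, which leaves out those without a call in MUT_CTCF. Their median scores were 821 and 919 in WT_CTCF replicates 1 and 2, and 253.5 and 227.5 in MUT_CTCF replicates 1 and 2. On the log2 scale the library medians averaged 9.76 ± 0.12 (SD, n = 2) and 7.91 ± 0.11 (SD, n = 2), a difference of -1.85 (exact two-sided permutation test, p = 0.333). The median of the differences per member was also -1.85, which is a ratio of 0.277, with a 25th to 75th percentile range of -2.33 to -1.34. Over the 29943 other regions called in all 4 libraries the median was -1.18, over CpG-poor promoter regions -1.21 and over the 131 CpG-rich regions away from promoters -1.59.

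Both MUT_CTCF scores lay below both WT_CTCF scores in 369 of the 374 members (98.7%), where the background was 96.2% of 30317 regions. Both lay above in 1 member (0.267%), where the background was 0.221%. A lower score was therefore the rule in every group, and the groups differed in its size. The score was lower by more than 75% in 151 members (40.4%), in 33.6% of CpG-rich regions away from promoters and in 6.88% of all other regions. Scores were also ranked among the peaks of each library. The WT_CTCF lists are longer than the MUT_CTCF lists, so a percentile does not stand for the same rank in both genotypes, and the members are best read against other regions of the same library. The members' median percentile among all peaks of the library was 80.1 and 82.6 in WT_CTCF and 53.8 and 49.7 in MUT_CTCF, with means of 81.3 ± 1.77 and 51.7 ± 2.91 (SD, n = 2). All other regions averaged 70.4 ± 1.59 with WT_CTCF and 54.2 ± 1.06 with MUT_CTCF (SD, n = 2), so members ranked above them with WT_CTCF and below them with MUT_CTCF. CpG-rich regions away from promoters averaged 74.8 ± 2.12 with WT_CTCF and 47.0 ± 2.14 with MUT_CTCF (SD, n = 2), below the members in both.

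**Figure D4:**
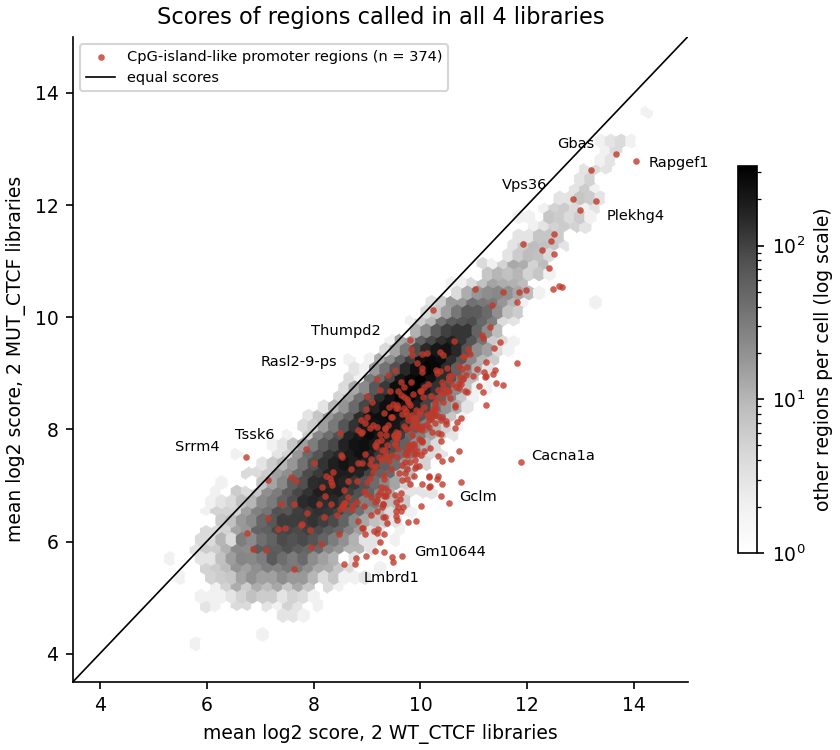
Mean log2 score in the 2 WT_CTCF libraries (x axis) against the mean in the 2 MUT_CTCF libraries (y axis) for regions called in all 4 libraries. Red points are the 374 CpG-island-like promoter regions, grey cells count the 29943 other regions on a log scale, and the line marks equal scores. Many red points lie in the lower part of the grey cloud or below it, with a median difference of -1.85 against -1.18.

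Peaks at members also covered fewer bp with MUT_CTCF, where the widths of all peaks of a library over a region were summed. The median summed width at members called in all 4 libraries was 530 and 549 bp in WT_CTCF and 292.5 and 294.5 bp in MUT_CTCF. The difference was -246 bp (exact two-sided permutation p = 0.333). Other regions had 526 and 554 bp with WT_CTCF and 404 and 389 bp with MUT_CTCF, so the widths of both groups were close with WT_CTCF and apart with MUT_CTCF. CpG-rich regions away from promoters were nearer to the members, with 525 and 544 bp in WT_CTCF and 316 and 315 bp in MUT_CTCF. Summits of the same member differed by a median of 4 bp between replicates and by 16 to 17 bp between WT_CTCF and MUT_CTCF libraries. In other regions the values were 7 to 8 bp between replicates and 10 to 11 bp between genotypes. In CpG-rich regions away from promoters they were 6 to 7 bp and 16 to 18 bp.

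Calls with MUT_CTCF differed among the members by G+C content. In the lowest of 4 classes of nearly equal size, up to 58.4% G+C, 64.8% and 62.2% of 233 members were called in the MUT_CTCF libraries, and 48 (20.6%) were called with WT_CTCF alone. In the highest, above 67.7% G+C, 13.3% of 233 members were called in each MUT_CTCF library, and 160 (68.7%) were called with WT_CTCF alone. The WT_CTCF libraries called 89.7% and 97.4% of the lowest class and 88.4% and 94.8% of the highest, so the classes were close there. The median score difference went from -1.72 over 141 members to -2.47 over 28 members called in all 4 libraries. By CpG ratio, the share called with WT_CTCF alone was 32.6% in the lowest of 4 classes and 57.9% in the highest, and the median G+C content of these classes was 59.2% and 69.6%.

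From 55% G+C upward, regions that were no members followed the same order. Below 55% they did not. Of other regions called in both WT_CTCF libraries, 60.8% of 7631 under 40% G+C and 70.2% of 7782 at 50% to 55% were called in both MUT_CTCF libraries. Their median score differences were -1.24 and -1.10. Of regions with 65% to 70% G+C called in both WT_CTCF libraries, 34.1% of 164 members, 15.8% of 38 CpG-rich regions away from promoters and 22.7% of 66 other regions were called in both MUT_CTCF libraries. At 70% G+C and over, the shares were 7.97% of 138 members, 9.52% of 21 CpG-rich regions away from promoters and 8.70% of 23 other regions. At 55% to 60% G+C the shares were 68.6% of 290 members, 56.5% of 124 CpG-rich regions away from promoters and 64.7% of 2170 other regions, so the members were not below the other regions there. The median score difference of regions called in all 4 libraries was further from 0 for members at 55% to 60% G+C, with -1.69 over 199 members, -1.45 over 70 CpG-rich regions away from promoters and -1.06 over 1403 other regions.

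Within classes of equal WT_CTCF score, the members' median score difference minus that of all other regions was -0.67 on the log2 scale (mean, weighted by members) over 9 score classes. Against CpG-rich regions away from promoters it was -0.06, over the 3 classes with enough of them. The members' medians in these classes, 7 to 9, were -1.93, -1.79 and -1.96, against -1.88, -2.02 and -1.63, so the sign was not the same in each. Within the 2 classes of G+C content from 55% to 65%, with 307 members, the values were -0.59 and -0.15, and the classes above held too few other regions. The classes needed at least 20 regions to compare with, and these comparisons were added after the data were seen. Why calls and scores moved with base composition was not tested.

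**Figure D5:**
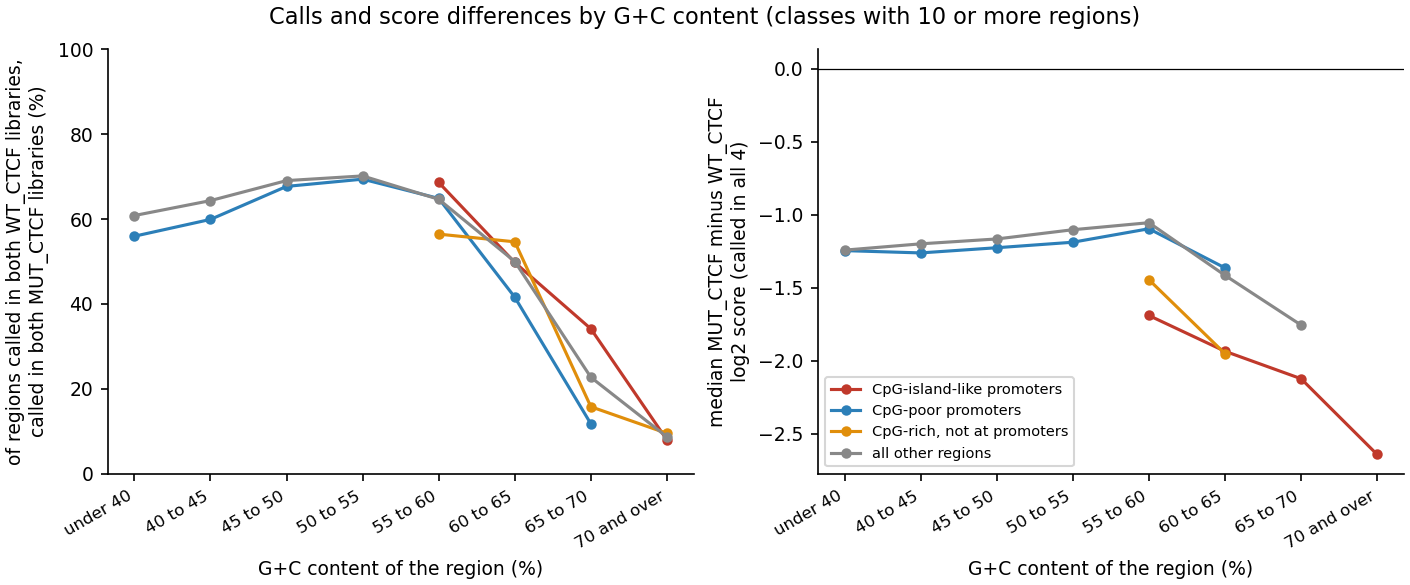
Class of G+C content (x axis, %) against the share of regions called in both WT_CTCF libraries that were called in both MUT_CTCF libraries (left, y axis in %) and against the median MUT_CTCF minus WT_CTCF log2 score of regions called in all 4 libraries (right, y axis). Lines are the 4 region groups, and classes with fewer than 10 regions are not drawn. The share is lowest at 70% and over in the groups drawn there, with 7.97% for members.

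A core match went with more calls, and the score differences with and without it were close. With MUT_CTCF, 58.7% and 57.6% of the 344 members with a match were called, and 36.0% and 32.8% of the 586 members without. All other regions had the same order, with 66.5% and 64.6% with a match and 45.9% and 43.6% without. CpG-rich regions away from promoters had 53.0% and 54.5% with a match and 36.8% and 36.3% without. The median of the authors' mean signal was 323 at members with a match and 161 at members without. The median score difference was -1.85 over 191 members with a match and -1.86 over 183 without, and the median G+C content was 63.3% and 62.2%. Members with an exact match were called in 72.3% and 70.8% of cases with MUT_CTCF, against 89.3% and 88.2% of CpG-poor promoter regions and 64.3% and 71.4% of the 28 CpG-rich regions away from promoters with an exact match.

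Position relative to the start also went with the calls. Of members with the summit within 100 bp of the start, 48.0% and 45.1% were called in the MUT_CTCF libraries, and of the 76 members with the summit over 100 and up to 300 bp downstream, 27.6% and 26.3%. These downstream members had a median G+C content of 65.5%, against 62.5% within 100 bp, and the part of composition in this difference was not tested. CpG-poor promoter regions at the same positions were called in 58.9% and 58.0%, and in 46.6% in each library, of cases. Members in the head-to-head layout were called in 33.9% and 37.1% of cases with MUT_CTCF, single ones in 45.2% and 42.3%. CpG-poor promoter regions had the same order, with 38.4% and 40.1% in the head-to-head layout and 57.9% and 55.7% of single ones.

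The authors' mean signal of a site went with its calls as well. In the lowest of 4 classes by the authors' mean signal, up to 100.8, 2.14% and 0.427% of 234 members were called in the MUT_CTCF libraries and 0 were called in all 4. In the highest class, above 403, 93.6% and 91.4% of 233 members were called with MUT_CTCF. Other regions with a mean signal between 100.8 and 238 were called in 96.1% and 95.7% of cases with MUT_CTCF, against 18.6% and 16.5% of the 231 members and 36.7% in each library of the 90 CpG-rich regions away from promoters in that range. The mean signal includes the MUT_CTCF libraries, so this split is not independent of the calls.

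The values next to the limits of the rule were as follows. The 71 promoter regions counted as just outside, with 54% to 55% G+C, were called in 46.5% and 52.1% of cases with MUT_CTCF. Their median score difference was -1.40, and the 70 members with 55% to 56% had 68.6%, 65.7% and -1.80. These 71 do not stand for the wider class of 1340 CpG-poor promoter regions with 50% to 55% G+C. That class was called in 61.1% and 60.9% of cases with MUT_CTCF and had a median of -1.19. Just below and just above a CpG ratio of 0.6, the median score difference was -1.39 and -1.47.

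The members with the highest mean signal per kb had high scores with both proteins. The mean signal includes the MUT_CTCF libraries, so this choice of members is not independent of their MUT_CTCF scores. At Rapgef1, a guanine nucleotide exchange factor of the Ras family pathway (chr2:29474795-29475368), the scores were 15959 and 17588 with WT_CTCF and 6803 and 7283 with MUT_CTCF. At Gbas (chr5:130230142-130231206) they were 12266 and 13469 with WT_CTCF and 7762 and 7564 with MUT_CTCF. The MUT_CTCF libraries were the lower ones in both, by 2.38-fold at Rapgef1 and 1.68-fold at Gbas. Plekhg4 (chr8:107898334-107899140) had scores of 9621 and 10448 with WT_CTCF and 4448 and 4169 with MUT_CTCF, and Vps36, a subunit of the ESCRT-II complex that sorts membrane proteins (chr8:23302845-23303579), had 7069 and 7668 with WT_CTCF and 4361 and 4411 with MUT_CTCF. The log2 differences of these 4 members were -1.25, -0.75, -1.22 and -0.75 in the order named, all nearer to 0 than the median of the members. Their summits lay at -88 to -40 bp from the start, and each region touched an exon and a UTR.

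The largest difference was at Cacna1a, which encodes the pore subunit of a P/Q-type calcium channel (chr8:87163070-87163699, G+C content 71.6%). Its scores were 3457 and 4133 with WT_CTCF and 158 and 184 with MUT_CTCF, a ratio of 22.2. The summit lay 445 bp downstream of the start and the region touched coding sequence and a UTR. Gclm, the modifier subunit of the enzyme that starts glutathione synthesis (chr3:121948218-121948627, G+C content 73.7%), had scores of 1515 and 1438 with WT_CTCF and 116 and 92 with MUT_CTCF, 14.3-fold lower. In both, the genotypes were far apart and the replicates close.

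Gm10644 (chr8:86478860-86479428), in the head-to-head layout, had scores of 771 and 837 with WT_CTCF and 82 and 35 with MUT_CTCF. Lmbrd1, a lysosomal membrane protein of cobalamin export (chr1:24685109-24685580), had 606 and 855 with WT_CTCF and 41 and 61 with MUT_CTCF. Their log2 differences were -3.91 and -3.85, and neither region held a core match. At Gm10644 the MUT_CTCF libraries differed from each other, and the log2 difference was -3.29 without MUT_CTCF replicate 2 and -4.52 without MUT_CTCF replicate 1.

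A single member, Srrm4, had both MUT_CTCF scores above both WT_CTCF scores. Srrm4 encodes a splicing regulator of neuronal microexons (chr5:116903521-116903879, G+C content 57.7%, summit 246 bp downstream of the start, in coding sequence). Its scores were 129 and 88 with WT_CTCF and 188 and 175 with MUT_CTCF, a log2 difference of 0.77, which was 1.04 without WT_CTCF replicate 1 and 0.49 without WT_CTCF replicate 2. All 4 scores were low for members called in all libraries, and the match lay on the minus strand.
Srrm4 (chr5:116903608-116903708, minus strand): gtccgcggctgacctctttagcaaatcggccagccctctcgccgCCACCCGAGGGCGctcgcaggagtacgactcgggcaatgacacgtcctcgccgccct

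The smallest differences with both MUT_CTCF scores below both WT_CTCF scores were at Tssk6, a kinase of developing sperm, at Rasl2-9-ps and at Thumpd2. Tssk6 (chr8:72425179-72425671) had scores of 212 and 255 with WT_CTCF and 195 and 205 with MUT_CTCF, so the libraries nearly touched. Rasl2-9-ps (chr7:5077181-5077879) had 545 and 622 with WT_CTCF and 471 and 484 with MUT_CTCF. Thumpd2 (chr17:81464313-81464802) had 886 and 919 with WT_CTCF and 641 and 737 with MUT_CTCF. Their log2 differences were -0.22, -0.29 and -0.39, and none of these regions held a core match. A single library moved these values, to -0.08 at Tssk6 and -0.19 at Rasl2-9-ps without WT_CTCF replicate 2 and to -0.35 and -0.38 without WT_CTCF replicate 1.

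Among members called with WT_CTCF alone, Carm1 had the highest score. Carm1 encodes an arginine methyltransferase that acts on histone H3 and on coactivators. Its region (chr9:21350955-21351582, G+C content 78.5%, with 91 CpG dinucleotides) had scores of 3021 and 3226 in the WT_CTCF libraries and no peak in either MUT_CTCF library, although its authors' mean signal over the 4 libraries was 471. Usp42, a deubiquitinase (chr5:144492932-144493487, G+C content 78.4%), had scores of 1526 and 1665 with WT_CTCF. 1700081L11Rik (chr11:104303510-104304001, G+C content 73.2%) had 1169 and 1361, and Cdc73, a subunit of the Paf1 elongation complex (chr1:145549794-145550430, G+C content 73.5%), had 1154 and 1257. All 4 of these scored above the median of the members called in every library in both WT_CTCF libraries, and their summits lay at -142 to -30 bp from the start.

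Gene lists were described by their members, beside the 40.2% of all members that were called in all 4 libraries and the 41.1% called with WT_CTCF alone. The lists were chosen with earlier results known and are small, so nothing particular to a list is drawn from them. For chromatin architecture, 6 of 21 genes for CTCF, cohesin and boundary proteins had a member (28.6%, against 4.14% of all protein-coding symbols), 7 members in all. Stag1, a cohesin subunit, had scores of 1005 and 1380 with WT_CTCF and no MUT_CTCF peak, and the Ctcf promoter itself had 239 and 265 and no MUT_CTCF peak. Stag2, the alternative subunit to Stag1, had 749 and 950 with WT_CTCF, 109 in MUT_CTCF replicate 1 and no peak in replicate 2. Pds5b, which regulates the release of cohesin, had 919 and 781 with WT_CTCF, 97 in MUT_CTCF replicate 1 and no peak in replicate 2. The only member of this list called in all 4 libraries was Esco1, which acetylates cohesin, with 598 and 409 with WT_CTCF and 99 and 100 with MUT_CTCF. Pds5a had 2 members, with scores of 158 or less in every library.

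Cytosolic ribosomal protein genes had 8 members among 79 genes, of which 4 were called in all 4 libraries and 4 with WT_CTCF alone. At Rpl26 the scores were 2250 and 2563 with WT_CTCF and 555 and 443 with MUT_CTCF. The scores were 4.84-fold lower with MUT_CTCF at Rpl26, the largest difference of the 4. Rpl10a, Rpl13a, Rpl37 and Rps20 had no MUT_CTCF peak. Mitochondrial ribosomal protein genes had 7 members among 76 genes, 4 called in all 4 libraries and 2 with WT_CTCF alone, and Mrps16 had the largest difference of the list, with 1203 and 1505 with WT_CTCF and 117 and 109 with MUT_CTCF.

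Of 54 translation initiation factors, 4 had a member (7.41%), and of 41 spliceosome subunits, 4 (9.76%), against 10.1% of cytosolic and 9.21% of mitochondrial ribosomal protein genes and 4.14% of all protein-coding symbols. Eif2s1, the alpha subunit of initiation factor eIF2, had scores of 1194 and 919 with WT_CTCF and 110 and 153 with MUT_CTCF, 8.07-fold lower. The list of initiation factors also held Eif2c1 and Eif2c2, which encode Argonaute proteins of RNA silencing, and 2 of its 4 members were called in all 4 libraries, with 0 called with WT_CTCF alone. Of the 4 spliceosome members, Sf3b2 had 955 and 778 with WT_CTCF and 326 and 421 with MUT_CTCF, and 2 were called with WT_CTCF alone. The proteasome list, with 39 genes, and the list of O-GlcNAc and hexosamine enzymes, with 10, had 0 members.

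Among genes of cell identity, 3 of 27 pluripotency factors had a member (11.1%, against 4.14% of all protein-coding symbols). Mycn had scores of 493 and 475 with WT_CTCF and 61 and 94 with MUT_CTCF, 6.39-fold lower. Sox2 had 225 and 266 with WT_CTCF and 66 and 82 with MUT_CTCF, at a summit 927 bp downstream of the start and in coding sequence, and Tbx3 had a peak in WT_CTCF replicate 2 alone, with a score of 42. Of 53 lineage regulators only Neurog2, a neurogenic transcription factor, had a member, with 372 and 489 with WT_CTCF and no MUT_CTCF peak. Among Hox genes, Hoxa7 had 882 and 967 with WT_CTCF and 225 and 252 with MUT_CTCF, Hoxa6 had 457 and 839 with WT_CTCF and 93 in MUT_CTCF replicate 1, and Hoxd10 was called with WT_CTCF alone.

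In the list of JAK-STAT and LIF signalling, both members were called with WT_CTCF alone: Socs1, a feedback inhibitor of cytokine signalling, with scores of 514 and 661, and Jak2, a cytokine receptor kinase, with 129 and 165. Their G+C content was 73.7% and 81.4%. Of 38 cell cycle regulators, 4 had a member. Ccnd1, which encodes cyclin D1, had 649 and 634 with WT_CTCF and 166 and 115 with MUT_CTCF, and Ccna2, Cdk6 and Mdm2 had a peak in 1 MUT_CTCF library each. Pgk1 and Pkm2 of glycolysis and Cct7 of the chaperonin were called with WT_CTCF alone, with scores of 168 or less.

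Among chromatin regulators, Prmt3, an arginine methyltransferase like Carm1, had 1439 and 1525 with WT_CTCF and 362 and 468 with MUT_CTCF, whereas Carm1 had no MUT_CTCF peak. Wbp7, a histone H3 methyltransferase of the trithorax group, had 667 and 889 with WT_CTCF and 263 and 152 with MUT_CTCF, and Cxxc1, which binds unmethylated CpG, had 186 and 216 with WT_CTCF and no MUT_CTCF peak. Gadd45b, placed in the list for DNA methylation, had 752 and 1005 with WT_CTCF and 283 and 139 with MUT_CTCF, and Mbd1, a reader of methylated CpG, was called with WT_CTCF alone, with a score of 213 in replicate 1. Jarid2, a partner of Polycomb complex PRC2, had 67 and 126 with WT_CTCF alone, and Pold1, the catalytic subunit of DNA polymerase delta, had 604 and 969 with WT_CTCF and 336 and 328 with MUT_CTCF. Zfp genes, which encode zinc finger proteins, had 15 members among 340 genes, 5 called in all 4 libraries and 8 with WT_CTCF alone. In that list the difference ranged from 4.39-fold at Zfp341 to 1.52-fold at Zfp560.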

How the data were processed

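CTCF ChIP-seq was analysed in 2 WT_CTCF and 2 MUT_CTCF libraries, grouped by sample title. Input libraries were not analysed here. Per the methods and the submitters' processing notes, reads were trimmed (Trim Galore 0.4.4) and aligned to mm9 (Bowtie2 2.3.4.1), multiply aligned and duplicate reads were removed, coverage was scaled by Drosophila spike-in factors, and peaks were called per library (MACS2 2.1.1.20160309). The authors' deposited peak lists give positions, summits and a score, whose definition, cutoff and use of the input are not given in the sources used here. The smallest score in any list was 13. The authors' deposited table of joined regions gives a mean signal, the average of scaled read counts over the 4 libraries. Its other columns hold the authors' own comparison by DESeq2 1.38.0 (fold changes, errors and p-values) and were not used, so a lower score cannot be set against read counts. Unused columns of per-sample values numbered 0. Read depth is unknown, so scores carry no counting error.

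Peaks were assigned to regions by an overlap of at least 1 bp, and starts and features came from GENCODE vM1 on the same build. Library values were compared by exact two-sided permutation tests. Regions are not replicates, so counts of regions have no test. Named were the 4 members with the highest mean signal per kb, the 4 most negative and 4 most positive score differences with genotypes that do not overlap, the 4 highest scores among members called with WT_CTCF alone, and the ends of each of 20 gene lists. Other list members were named after their values were seen. A member that the rule names is not reported here. Members and lists were chosen with earlier results of these data known, and the comparisons with CpG-rich regions and within classes were chosen after seeing the data. Alternatives covered score, overlap, promoter window, CpG limits, filters, a replicate block and the omission of each library. Scripts in Python 3.11.15, with scipy 1.17.1, pandas 2.3.3, numpy 2.4.6 and, for the plots, matplotlib 3.10.9, were tested on simulated data.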

Additional observations from a re-analysis of the deposited data

How the results depend on the processing

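The results were recomputed with stricter scores, other overlap rules, promoter windows and CpG limits, filters on signal and width, and without each library. Of 133 alternatives over the 11 summary results, 119 were classed as unchanged, 14 as moved and 0 as reversed. Counts classed as unchanged stayed within 1.5 times, but library values classed so could differ much in size. The gap to other regions was -32.3 points at a mean signal of at least 50 and -30.4 with the stricter CpG limits. Against CpG-rich regions away from promoters it was -1.62 points. The difference in the share called was -69.2 points with an overlap of at least 50%. Of 169 over 31 named members, 133 stayed, 36 moved and 0 reversed, and alternatives in which a member had no value are not in this count.

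When peaks scoring under the median of all lists together were left out, members with both MUT_CTCF scores below both WT_CTCF scores numbered 159 of 161, those above 0, and the summit displacement was 14.25 bp against 16.25 bp. With an overlap of at least 50% of both the peak and the region, the count below was 184 of 189 and the displacement 15 bp. Members called with WT_CTCF alone then numbered 550, against 382. Cacna1a, Gm10644, Lmbrd1 and Gclm had no score difference under this rule, so it gives no check of their large differences. When the summit had to lie inside the region, their differences were unchanged, at -4.47, -3.91, -3.85 and -3.84. With the stricter limits of 60% G+C and a CpG ratio of 0.75, 227 of 427 members (53.2%) were called with WT_CTCF alone, the count below was 116 of 117, the count above 0 and the displacement 16.75 bp. These counts rest on fewer members by construction. The motif share was 43.0% in regions of at least 300 bp and 6.99% with no mismatch, and the cause of the former was not tested.

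Without each library in turn, the difference in the share called ranged from -53.2 to -47.4 points, its gap to other regions from -18.6 to -17.2 points, the median log2 score difference from -1.97 to -1.77, the percentile difference, in lists of unequal length, from -32.7 to -28.3 and the width difference from -256 to -236 bp. Members called with WT_CTCF alone ranged from 398 to 469 and members with lower scores from 369 to 407. The summit displacement ranged from 16 to 16.5 bp. The count above ranged from 1 to 2, with 2 without WT_CTCF replicate 2 or MUT_CTCF replicate 2, and members called with MUT_CTCF alone from 0 to 1, with 1 without MUT_CTCF replicate 2. In a replicate block, which pairs libraries by number, the differences stayed at -50.3 points, -17.9 points, -1.85, -29.6 and -246 bp, with p = 0.5, the smallest that an exact sign-flip test of 2 pairs gives. The numbers were not taken to pair libraries, since deviations of same-numbered libraries had a correlation of -0.0039 across members.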

Other observations

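Among the members, region width went with the calls as the mean signal did. Of the 235 narrowest members, up to 311 bp, 66.0% and 86.4% were called in the WT_CTCF libraries, 2 (0.851%) in MUT_CTCF replicate 1 and 0 in MUT_CTCF replicate 2. Of the 231 widest, above 571 bp, 87.4% and 85.3% were called with MUT_CTCF, against 96.1% and 95.6% of other regions in that range. The regions were joined from the peaks themselves, so their width is not independent of the calls.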
